A study of Mus musculus with 24 samples.

Results

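The expression of 9 genes tied to naive lymphocytes and to their homing to lymph nodes was described in CD45+ cells from mammary tumors of mice. The genes were taken by symbol (Ccr7, Lef1, Tcf7, S1pr1, Klf2, Il7r, Satb1, Glycam1 and Ms4a4b), and all 9 had a row among the 16996 genes measured. EMT6-hHER2, a clone of a murine breast cancer line that carries human HER2, was grown in the mammary fat pad of wild-type female BALB/c mice of 10 to 12 weeks. When tumors measured 80 mm3, mice were left untreated or received 1 intravenous dose of trastuzumab (20 mg/kg), an antibody to HER2, T-DM1 (15 mg/kg), trastuzumab linked to a maytansinoid, or T-PNU (1 mg/kg), trastuzumab linked to an anthracycline derivative. Tumors were taken on day 10, CD45+ cells were enriched with magnetic beads, and 1 library was made from each of 24 mice, 6 in each of the 4 groups. The methods of the study tie this day to the volume of T-PNU tumors, which was by then below that at dosing. In its efficacy experiments trastuzumab and T-DM1 did not prevent tumor growth. Tumor size at harvest may thus differ with treatment, and it cannot be told apart from it. The doses of the 3 agents differ, so that a difference between agents is also a difference in dose. The column headers also carry a number of unstated meaning, below 500 for untreated samples only, and this division cannot be told apart from treatment.

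As background, naive T and B lymphocytes circulate between blood and lymph nodes. They enter a node through high endothelial venules, where adhesion molecules on the lymphocyte bind sulfated mucins such as the Glycam1 product and the chemokine receptor CCR7 follows CCL19 and CCL21. They leave again along a gradient of sphingosine 1-phosphate through the receptor encoded by S1pr1. The factor KLF2 drives transcription of S1pr1, which falls in lymphocytes that have been activated. TCF1, the product of Tcf7, and LEF1 are partners of beta-catenin that mark naive and memory T cells, SATB1 organizes chromatin in developing T cells, and the IL-7 receptor encoded by Il7r keeps resting T cells alive. Ms4a4b encodes a membrane protein of T cells in the family of CD20.

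In the GENCODE annotation of the same build (GRCm38), Ccr7 and Tcf7 lie on chromosome 11, Lef1 and S1pr1 on chromosome 3 and Il7r and Glycam1 on chromosome 15. Klf2 lies on chromosome 8, Satb1 on 17 and Ms4a4b on 19. The exons of a gene, merged over all its transcripts, cover 1847 bases for Klf2 and 19027 bases for Satb1. Ms4a4b belongs to a family of related genes on chromosome 19, and reads that such relatives share may not all have been assigned to it.

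Lef1 and Glycam1 had the largest spread of the 9 genes over the samples (below), and their promoter windows are shown for that reason. Each is the 250 bases before a RefSeq start (GRCm38.p6), written 5′ to 3′ on the strand of the gene, and only windows that overlap no exon in GENCODE are shown. For Lef1 these are chr3:131112541-131112790 and chr3:131156044-131156293, both on the plus strand and inside the annotated span of the gene. For Glycam1 it is chr15:103565082-103565331 on the minus strand, directly before the gene. Capitals mark CTTTGA or its complement TCAAAG, the core bound by TCF and LEF factors, and CACCC or GGGTG, the core bound by KLF factors. GTAAACA, bound by FOXO factors, was searched too.

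Lef1, start within the gene, first window: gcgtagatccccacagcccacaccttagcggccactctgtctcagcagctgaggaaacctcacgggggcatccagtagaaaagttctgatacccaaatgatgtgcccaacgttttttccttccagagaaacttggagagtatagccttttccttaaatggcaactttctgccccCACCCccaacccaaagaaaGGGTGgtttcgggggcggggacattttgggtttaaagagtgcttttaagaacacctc
Lef1, start within the gene, second window: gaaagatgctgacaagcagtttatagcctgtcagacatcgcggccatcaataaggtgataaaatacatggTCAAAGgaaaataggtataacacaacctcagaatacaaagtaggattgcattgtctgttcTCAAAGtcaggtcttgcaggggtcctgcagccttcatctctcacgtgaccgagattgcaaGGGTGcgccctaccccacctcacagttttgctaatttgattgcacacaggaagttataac
Glycam1: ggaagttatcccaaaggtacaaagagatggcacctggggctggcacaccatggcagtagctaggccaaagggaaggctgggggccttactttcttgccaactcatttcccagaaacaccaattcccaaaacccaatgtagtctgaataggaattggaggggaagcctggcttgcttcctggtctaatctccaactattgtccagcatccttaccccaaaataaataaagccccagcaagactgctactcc

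The second Lef1 window held the TCF/LEF core at 2 places and the Glycam1 window held none of the 3 motifs. RefSeq windows were at hand for 7 of the 9 genes, with 15 starts. The TCF/LEF core stood in 1 of these starts, the KLF core in 12 and the FOXO motif in 0, and no match overlapped another. Several starts belong to the same gene and some of their windows overlap, so that they are not independent. By gene, the KLF core was found in 5 of 7 and the TCF/LEF core in 1. Of 32851 promoters of the same length, 13.8% held the TCF/LEF core, 52.0% the KLF core and 3.17% the FOXO motif. These matches describe the letters of the windows and were not tested for binding.

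The values are log2 and were normalized for library size by the authors. The depth of each library is unknown, since no counts were used here. Ptprc, which encodes CD45, lay between 14.01 and 15.52 in the 24 samples and had the 148th highest mean of all genes. Krt8, an epithelial keratin, lay between 11.69 and 13.77, so that transcripts of cells other than leukocytes were present too. Cd3e, a subunit of the T cell receptor complex, ran from 7.56 to 10.73. In such bulk samples, fewer cells of a type and less RNA per cell cannot be told apart.

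Per kilobase of exon, the mean level over the 24 samples was highest for Ccr7 (11.59 on the log2 scale) and lowest for Glycam1 (4.78). In between stood Il7r (9.93), S1pr1 (9.64), Klf2 (9.36), Tcf7 (8.81), Satb1 (7.80), Ms4a4b (7.51) and Lef1 (5.95). This order depends on the exon length, which is merged over all transcripts and can exceed that of the transcript expressed. Without the division by length, Satb1 had a mean of 12.05, beside 12.15 for Il7r and 11.25 for S1pr1. Several of these genes had a wide spread from mouse to mouse. By the SD over the 24 samples, Lef1 (1.68) ranked 5th of all genes, Glycam1 (1.66) 9th, Satb1 (1.47) 24th, Ccr7 (1.18) 86th, Tcf7 (1.16) 93rd and S1pr1 (1.04) 154th, against a median SD of 0.22 for all genes. Ms4a4b (0.77) ranked 382nd, Klf2 (0.46) 1938th and Il7r (0.46) 2002nd.

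Among the transcription factors, Lef1 ran from 6.59 in untreated sample A1 to 12.10 in T-PNU sample C2, a 45.4-fold range on the deposited scale. In untreated tumors its lowest, median and highest values were 6.59, 8.63 and 11.87, and in trastuzumab tumors 6.86, 8.09 and 10.96. In T-DM1 tumors they were 6.72, 9.18 and 10.96, and in T-PNU tumors 7.30, 10.31 and 12.10. The 4 groups overlapped over most of their range, and each held at least 1 tumor below 7.5 and 1 above 10.9. The untreated group was spread by a single tumor, B1 (11.87), with the next at 9.06. The group means were 10.03 ± 1.69 for T-PNU, 9.03 ± 1.51 for T-DM1, 8.65 ± 1.68 for trastuzumab and 8.62 ± 1.88 for untreated tumors (SD, n = 6 each).

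Tcf7 was arranged in the same way. Its lowest, median and highest values were 8.56, 9.50 and 12.12 in untreated, 9.09, 9.73 and 11.62 in trastuzumab, 8.76, 10.07 and 11.58 in T-DM1 and 9.47, 10.94 and 12.66 in T-PNU tumors. Again B1 stood alone above the other untreated tumors, which ended at 9.78. Satb1 ran from 9.70 (A1) to 14.62 (C2), with group means of 12.94 ± 1.39 for T-PNU, 11.90 ± 1.36 for T-DM1, 11.73 ± 1.5 for trastuzumab and 11.63 ± 1.63 for untreated tumors. Its medians were 13.31, 12.08, 11.30 and 11.71 in that order.

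Klf2, the fourth factor, varied far less. Its lowest, median and highest values were 9.23, 9.97 and 10.66 in untreated, 9.87, 10.04 and 10.89 in trastuzumab, 9.84, 10.08 and 10.89 in T-DM1 and 9.94, 10.56 and 11.19 in T-PNU tumors. In untreated tumors 2 samples were high, B1 (10.66) and C1 (10.57), whereas C1 was not high for Lef1 (8.49). In T-DM1 tumors E3 (10.89) stood above the next value of 10.26.

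Of the receptors that guide traffic, Ccr7 ran from 10.88 to 14.65 in untreated, from 11.19 to 14.05 in trastuzumab, from 11.61 to 13.68 in T-DM1 and from 11.27 to 14.77 in T-PNU tumors, with medians of 12.07, 11.86, 12.60 and 13.57. The group with the narrowest range, T-DM1, had an SD of 0.82, and the others had SDs of 1.24 to 1.37. S1pr1, the receptor for egress, had medians of 10.89 in untreated, 10.44 in trastuzumab, 11.03 in T-DM1 and 12.11 in T-PNU tumors. Yet the lowest T-PNU value (10.14, G1) was below the lowest trastuzumab value (10.16), and the highest untreated value (13.15, B1) stood far above the next untreated one (10.99).

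Glycam1, whose product is a mucin of high endothelial venules and is also found in milk, had the lowest level and a distribution of its own. In untreated tumors it stayed between 4.27 and 6.21. In trastuzumab tumors, 4 samples lay between 4.19 and 5.01 and the other two, E2 and B3, at 8.38 and 8.25. T-PNU tumors covered 4.68 (G1), 5.42 (A2), 6.54 (B2), 8.03 (D2), 8.90 (C2) and 9.43 (H1), and the highest T-DM1 value was 7.44 (G3). Untreated B1, which had the second highest value of the 24 for Ccr7, Lef1 and Satb1, reached only 6.21 for Glycam1.

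For Il7r the T-PNU group was the least mixed with the others. Its T-PNU values ran from 12.18 to 13.34 with a median of 12.53, and all 6 were above the highest T-DM1 value (12.11). The T-DM1 values began at 11.54, and those of trastuzumab tumors covered 11.71 to 12.54 with a median of 12.11. Untreated tumors covered 11.57 to 13.09, with B1 alone above 12.27. For Ms4a4b the lowest T-PNU value was 10.46 (A2), above 4 of the 6 untreated values, and the highest was 12.04 (C2). The untreated medians of Il7r and Ms4a4b were 11.90 and 9.89, and the T-PNU medians 12.53 and 11.36.

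**Figure D1:**
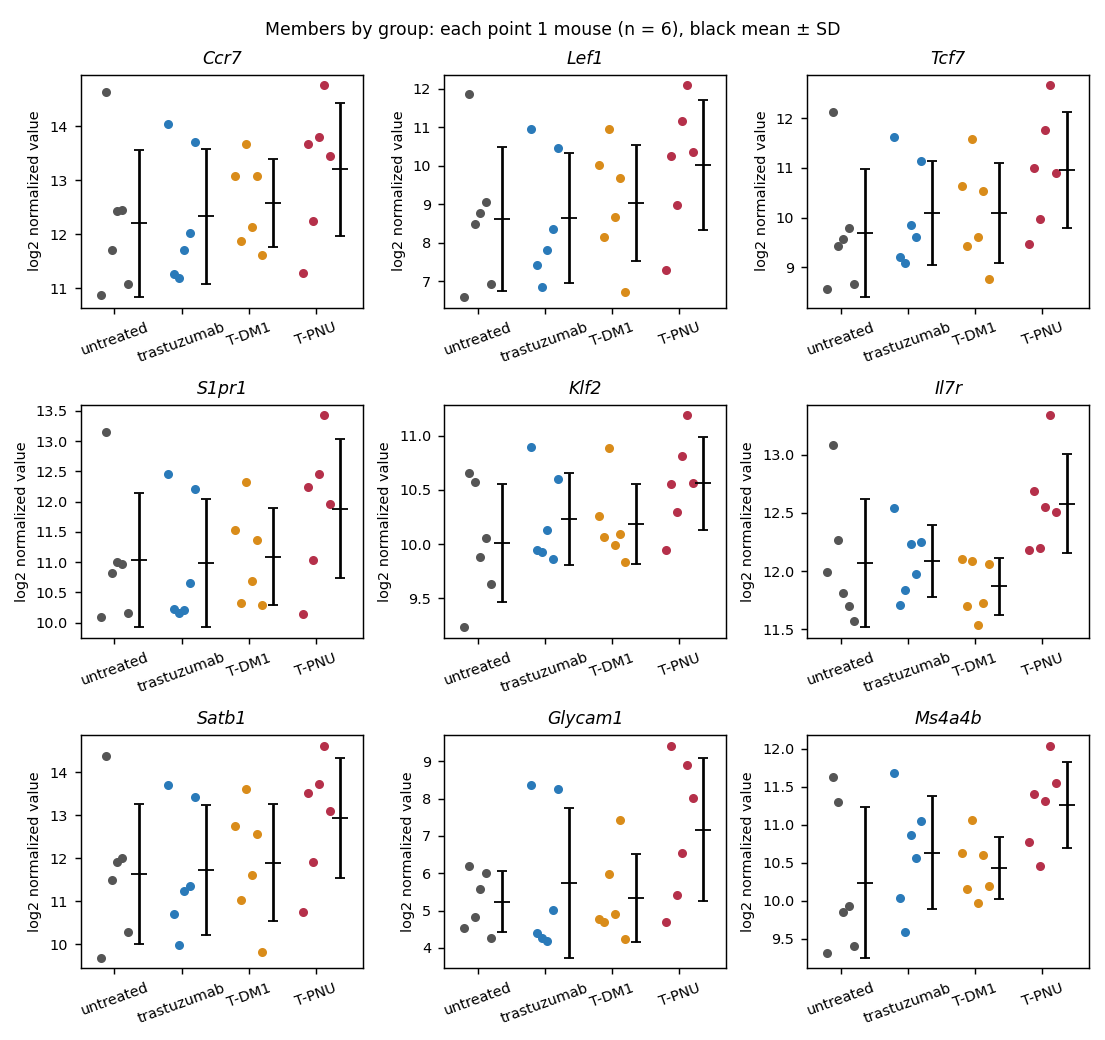
Log2 normalized values of the 9 genes (y axis) in the 4 groups (x axis), with 1 point per mouse (n = 6) and the mean ± SD in black beside the points. The groups overlap for every gene and pair of groups except Il7r in T-PNU against T-DM1 tumors, and untreated B1 stands at the top of its group for Ccr7 (14.65) and S1pr1 (13.15).

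The order of the group means was led by T-PNU for all 9 genes. For 7 genes the untreated group came last, and the exceptions were S1pr1 (trastuzumab, 10.99) and Il7r (T-DM1, 11.87). Neighbours in this order rarely stood apart. The step from T-PNU to the next group was less than the larger SD of both groups for 8 of the genes, between 0.506 times that SD for Ccr7 and 0.846 times for Ms4a4b, and it was 1.15 times the SD for Il7r. All steps below T-PNU were at most 0.369 times the larger SD.

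To ask whether the 4 groups differed at all, a limma F test was run on the 24 samples across all genes. A difference was called for 0 of the 9 genes at an adjusted p under 0.05, where 18.8% of all genes were called. The smallest adjusted p was 0.0843 for Il7r. At an unadjusted p under 0.05, 6433 genes and of the 9 Il7r would pass. Groups accounted for 33.6% of the spread of Il7r, 26.0% of that of Ms4a4b and 22.6% of that of Glycam1. For Ccr7 and Lef1 this share was 11.3% and 11.9%, compared with a median of 25.8% over all genes.

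The comparisons of T-PNU with the other groups share the 6 T-PNU samples. Against untreated tumors, T-PNU tumors had higher means of all 9 genes, and 0 of 9 differences passed the test (adjusted p from 0.115 to 0.331), where 0.188% of all genes were called. The largest difference was that of Glycam1, at 1.93 on the log2 scale (95% interval 0.19 to 3.67, SE 0.84, adjusted p = 0.164). Lef1 differed by 1.41 (-0.48 to 3.29), Satb1 by 1.31 (-0.33 to 2.94) and Tcf7 by 1.27 (0.01 to 2.53). Ms4a4b differed by 1.02 (0.23 to 1.81), with the smallest adjusted p of the 9 (0.115), and Ccr7 by 1.01 (-0.31 to 2.33). The differences of S1pr1, Klf2 and Il7r were 0.85, 0.55 and 0.50. The median difference of all genes was 0.01 in this comparison, and 4218 of them had an unadjusted p under 0.05. With samples weighted by how far they stood from their group (limma sample weights), all 9 genes were called, where 34.3% of all genes were. These calls are not independent, since the 9 genes rise and fall together between tumors (below).

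T-PNU and trastuzumab share the antibody and differ in the payload and in the dose. None of the 9 differences between them passed the test, which called 1 gene in all (0.00588%) and gave 3308 genes an unadjusted p under 0.05. The means were higher in T-PNU tumors by 0.33 (Klf2) to 1.42 (Glycam1), with adjusted p between 0.233 and 0.416. The interval of Il7r, 0.04 to 0.94, was the only one of the 9 that left out 0.

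T-PNU and T-DM1 differ at least in payload and in dose. T-PNU also carries its payload on a peptide linker joined by sortase, and a part of the linkage cannot be told apart here. They were the pair with the most calls, 29.8% of all genes in either direction. Of the 9 genes, 1 was called. Il7r was higher in T-PNU than in T-DM1 tumors by 0.71 (SE 0.22, 95% interval 0.26 to 1.16, adjusted p = 0.0191), and its 6 T-PNU values were all above its 6 T-DM1 values, as was so for 5.45% of all genes. A share of 1 in 9 is below the background. Between these groups 6 of 8 endothelial, 5 of 9 macrophage and 5 of 11 mammary and milk genes were also called higher in T-PNU tumors. Lower were 5 of 7 fibroblast and stroma genes, 3 of 7 mature dendritic cell genes and, of the mammary list, Krt8 (-0.96, adjusted p = 0.0043). The part of these in the difference of Il7r was not tested. Without T-PNU sample C2 the difference of Il7r was 0.56 with an adjusted p of 0.0565, and the call was lost. With the digit of the sample code (1, 2 or 3) as a factor it was 0.81 with an adjusted p of 0.383, but T-DM1 samples share no digit with T-PNU samples, so that this fit compares them only by way of the trastuzumab group, and 0 of all genes were called. Glycam1 (1.82, adjusted p = 0.101) and Ms4a4b (0.83, adjusted p = 0.102) came next. For the other six genes the differences ran from 0.37 (Klf2) to 1.04 (Satb1) with adjusted p of at least 0.242.

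**Figure D2:**
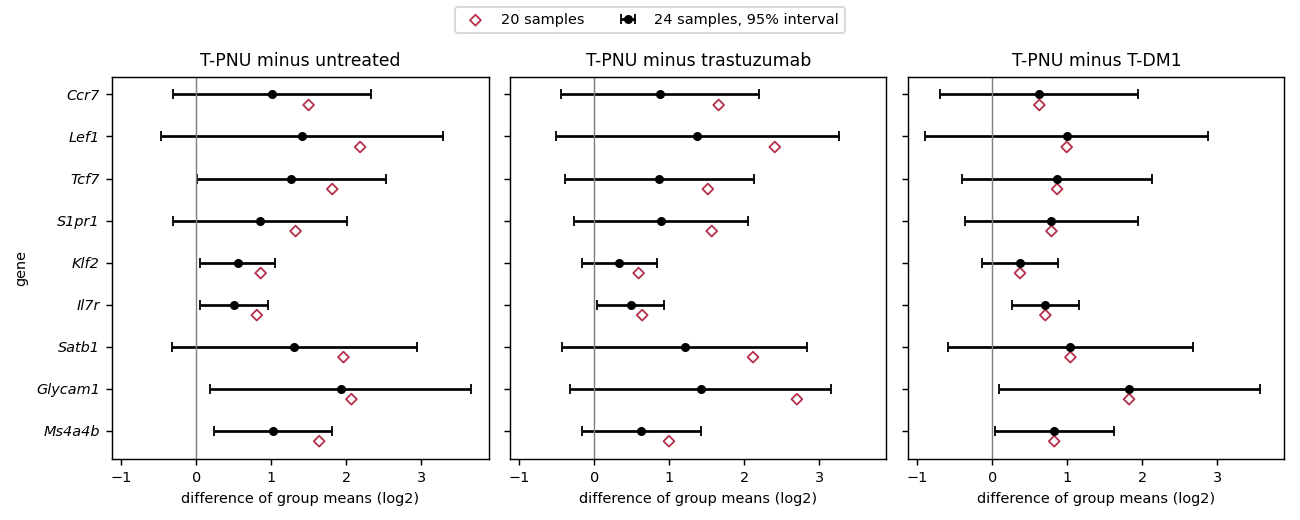
Difference of group means (x axis, log2) for the 9 genes (y axis), T-PNU minus each other group, with black points and 95% intervals for the 24 samples and open diamonds for the 20 samples of the heatmaps of the study. Every difference is above 0, and the diamonds lie to the right of the points against untreated and trastuzumab tumors, as for Lef1 (2.18 and 1.41 against untreated).

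The remaining comparisons gave small differences. T-DM1 minus untreated lay between -0.20 (Il7r) and 0.41 (Lef1), with 0 of 9 called where 6.27% of all genes were (3973 at an unadjusted p under 0.05). Trastuzumab minus untreated lay between -0.05 (S1pr1) and 0.51 (Glycam1), with 0 of 9 called and 0.259% of all genes (1491 at an unadjusted p under 0.05). T-DM1 minus trastuzumab lay between -0.41 (Glycam1) and 0.38 (Lef1), with 0 of 9 called and 0.647% of all genes (2604 at an unadjusted p under 0.05). These tests do not show that the groups were alike. For Lef1, the interval of T-DM1 minus untreated ran from -1.47 to 2.30.

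The heatmaps of the study show 20 of the 24 samples, leaving out B1 and C1 of the untreated and E2 and B3 of the trastuzumab group, and over these 20 the calls were different. All 9 genes were called higher in T-PNU than in untreated tumors, where 31.1% of all genes were called in either direction. All 9 were also called higher than in trastuzumab tumors, where 28% of all genes were called in either direction. The 9 genes rise and fall together between tumors (below), so that these are not 9 separate results. Lef1 then differed from untreated by 2.18 (adjusted p = 0.0490), Glycam1 by 2.07 (0.0481), Tcf7 by 1.81 (0.0186) and Ms4a4b by 1.64 (0.00244). Against T-DM1, whose samples are all among the 20, Il7r, Glycam1 and Ms4a4b were called (39.9% of all genes), and 7 of the 9 were called in the test of any group difference (40.8%). Of the 4 samples left out, B1, E2 and B3 had all 9 genes above their mean over the 24 samples, and C1 had 3. The methods of the study state that similarity between samples was used to find and remove outliers, and do not name these 4.

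Across individual tumors, 8 of the 24 held at least 7 of the 9 genes among their 8 highest values. They were untreated B1, trastuzumab E2 and B3, T-DM1 E3 and T-PNU H1, B2, C2 and D2, that is 1, 2, 1 and 4 of 6 per group. In B1, B2, C2, D2 and E2 all 9 genes were among their 8 highest. In 7 samples all 9 genes were above their mean over the 24 samples, and in 9 samples none was. At the other end, F1, F2 and G2 had all 9 genes among the 8 lowest, and A1 had 8. T-PNU tumors G1 and A2 did not share the high values, with 2 genes each above the mean.

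**Figure D3:**
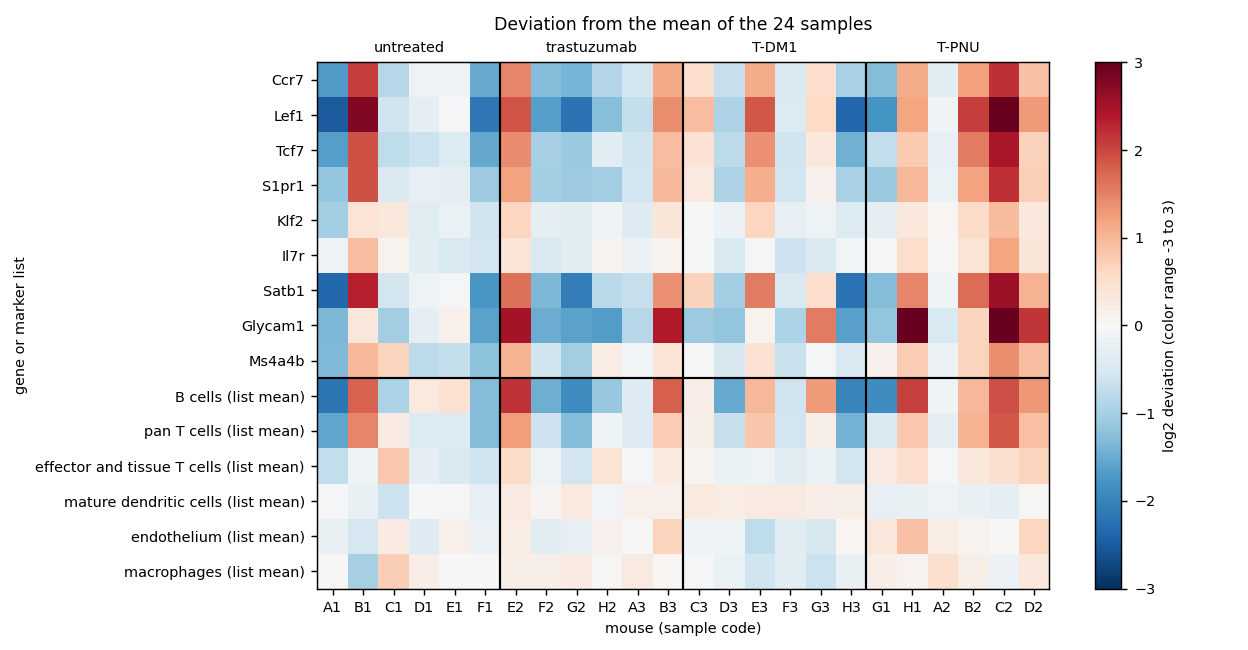
Deviation of each of the 9 genes, and of the mean of 6 marker lists, from its average over the 24 samples (color, log2, from -3 to 3), with samples in columns by group. Columns B1, E2, B3, E3, H1, B2, C2 and D2 are red for the 9 genes with few exceptions and also for the B cell and pan T cell lists, whereas the lists of mature dendritic cells and macrophages do not follow them.

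Ccr7, Lef1, Tcf7, S1pr1 and Satb1 moved almost as one. Over the 24 samples their 10 pairs had Pearson's r of 0.969 to 0.994 and Spearman's rho of 0.929 to 0.996. With the group means removed r was 0.965 to 0.994, and without the 2 samples farthest from the median it was 0.953 to 0.992. The 26 pairs with Klf2, Il7r, Glycam1 or Ms4a4b had r of 0.624 to 0.909 and rho of 0.544 to 0.890. By permutation tests over the samples, adjusted over the 36 pairs, the largest p was 0.0013 for r and 0.0067 for rho. All genes of a sample share its library, so these are relations between tumors and not between independent measurements.

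The same tumors were high in markers of lymphocytes in general. The B cell list (13 of 15 genes had a row, without Ighd and Ighm) had a summed level of 10.29 to 14.39 in untreated, 10.62 to 14.74 in trastuzumab, 10.52 to 13.84 in T-DM1 and 10.76 to 14.63 in T-PNU tumors on the log2 scale. Its highest samples were E2 (14.74), H1 (14.63), C2 (14.53), B1 (14.39) and B3 (14.38). The pan T cell list (15 of 18 genes had a row, without Trac, Trbc1 and Trbc2) had a summed level of 12.35 to 15.65 in untreated, 12.58 to 15.23 in trastuzumab, 12.50 to 14.96 in T-DM1 and 13.49 to 15.98 in T-PNU tumors. The lowest value of all genes and samples was 1.13, so that the absence of 0 does not show that a gene was detected. The part of these lists in the differences between groups was not tested.

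With the mean of the B cell list, the 9 genes had r from 0.610 (Il7r) to 0.95 (Satb1) and rho from 0.583 to 0.937. Without the 2 samples farthest from the median of the list r was 0.604 to 0.944, and with group means removed 0.576 to 0.95. With the pan T cell list r ran from 0.788 (Glycam1) to 0.966 (Satb1) and rho from 0.797 to 0.944, with r of 0.705 to 0.954 without the 2 farthest samples. Glycam1 had r = 0.899 with the B cell list and 0.788 with the pan T cell list, while Ms4a4b stood at 0.734 and 0.932 and Klf2 at 0.787 and 0.934. Whether such pairs of r differ was not tested. The largest permutation p for both lists, adjusted over 63 relations of 9 genes with 7 lists, was 0.0036 for r and 0.0081 for rho.

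**Figure D4:**
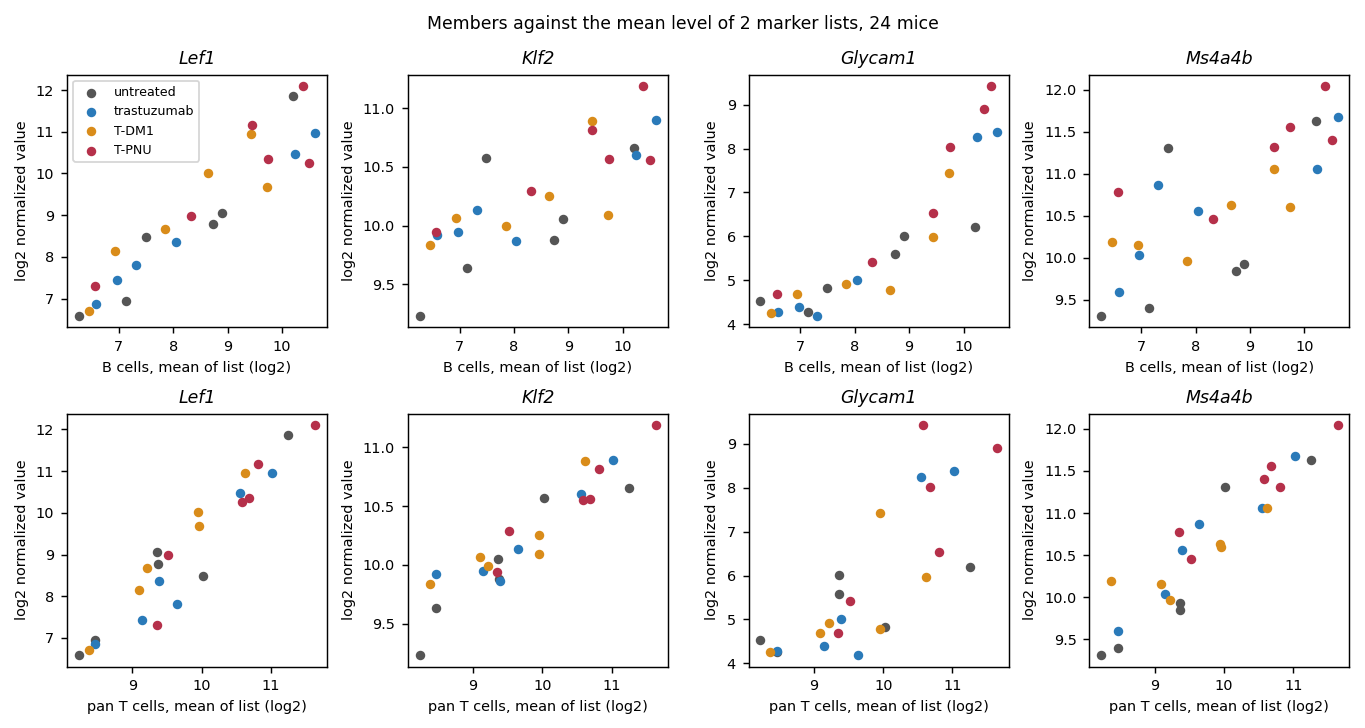
Log2 normalized values of Lef1, Klf2, Glycam1 and Ms4a4b (y axes) against the mean log2 level of the B cell list (upper row) and the pan T cell list (lower row), with 1 point per mouse colored by group. Lef1 follows both lists (r = 0.935 and 0.955) and Glycam1 has r = 0.899 with the B cell list and 0.788 with the pan T cell list.

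The slopes on the pan T cell list covered a wide range. For 1 log2 unit of the pan T cell list, Lef1 rose by 1.68 and Satb1 by 1.49, Tcf7 by 1.17, Ccr7 by 1.15 and S1pr1 by 1.02. Glycam1 rose by 1.37, Ms4a4b by 0.751, Klf2 by 0.453 and Il7r by 0.385. Subtracting the mean of a list from each sample shifts the difference of every gene in a comparison by the same amount. It also puts the spread of the list between mice into genes that follow the list weakly or not at all. Genes that follow it closely can lose spread instead. Within groups the list means had SDs of 0.797 to 1.1 (pan T cells) and 1.33 to 1.72 (B cells), beside a median SD of 0.22 for all genes. With the pan T cell or the B cell list subtracted, 0 of the 9 genes and 0 of all 16996 genes were called between T-PNU and T-DM1. Il7r rose by 0.385 per log2 unit of the pan T cell list and by 0.191 per unit of the B cell list, the least of the 9 genes for both. Given the spread thus added to Il7r, the lost call says nothing of Il7r itself.

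The list of effector and tissue T cell genes had r of 0.497 (Ccr7) to 0.849 (Ms4a4b), with adjusted p of at most 0.030 and r of 0.582 to 0.851 without the 2 farthest samples. For mature dendritic cells r lay between -0.417 and 0.003, and for macrophages between -0.393 and -0.075, with no adjusted p under 0.05 for either. With group means removed the macrophage r was -0.604 to -0.305, negative for all 9 genes, and without the 2 farthest samples it was -0.206 to 0.136. With the endothelium list Glycam1 had r = 0.466 (adjusted p = 0.044) but rho = 0.271 (adjusted p = 0.32), and Il7r had r = 0.357 (adjusted p = 0.13) and rho = 0.492 (adjusted p = 0.030). With group means removed r was 0.266 for Glycam1 and between -0.144 and 0.266 for the 9 genes. The mammary epithelium and milk list had r = 0.559 with Glycam1 and 0.561 with Ms4a4b (adjusted p = 0.012 and 0.011), or 0.399 and 0.370 with group means removed. Its rho had an adjusted p under 0.05 for 7 of the 9 genes. It includes Csn3, which encodes a milk casein and ran from 5.21 to 6.91 in T-PNU and from 4.94 to 5.56 in untreated tumors. No row carried the symbol Csn2.

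Of the list of lymph node stroma and high endothelial venules, 7 of 11 genes had a row, without Ccl19, Ccl21a, Madcam1 and Chst4. Their summed level was 13.07 to 14.14 in untreated, 13.43 to 14.07 in trastuzumab, 13.58 to 14.01 in T-DM1 and 12.72 to 13.92 in T-PNU tumors, most of it from Pdpn (group means of 13.06 to 13.53), which tumor stroma also expresses. In T-PNU against untreated tumors 0 of 7 were called, where 0.188% of all genes were. The median difference was -0.08, with values from -0.53 (Lyve1, of lymphatic endothelium) to 0.47 (Fut7, an enzyme that builds ligands of selectins). Against T-DM1, where 29.8% of all genes were called, 4 of 7 were called higher in T-PNU tumors, among them Cxcl13 (0.91, adjusted p = 0.0317), a chemokine of B cell follicles, and 1 lower, Enpp2 (-1.31, adjusted p = 0.0015), which encodes autotaxin. Cxcl13 was also called lower in T-DM1 than in trastuzumab tumors (-1.66), where 0.647% of all genes were called. Enpp2 was called higher in T-DM1 than in untreated tumors (0.85), where 6.27% of all genes were called. The chemokines that CCR7 binds and the addressin Madcam1 were thus not analysed here, and the part of lymph node cells in the high values was not tested.

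Other genes of naive and central memory T cells had a row for 15 of 15. Against untreated tumors 14 of 15 had higher means in T-PNU tumors, with 0 called (0.188% of all genes) and a median of 0.75 beside 0.01 for all genes. Cd27, a costimulatory receptor, differed by 1.14 (adjusted p = 0.241) and Bcl2, an inhibitor of cell death, by 0.25, and at the low end was Actn1 (-0.11). Against T-DM1, 2 of 15 were called higher in T-PNU tumors, Bcl2 (0.55, adjusted p = 0.0303) and Il6ra (0.45, adjusted p = 0.0023), and 2 lower, Igfbp4 (-0.53) and Actn1 (-0.41). Of all genes 29.8% were called in this comparison. Over the 20 samples 8 of the 15 were called higher in T-PNU than in untreated tumors, where 31.1% of all genes were called in either direction.

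Around S1pr1, 6 of 7 genes of sphingosine 1-phosphate signaling and egress had a row, without S1pr5. S1pr4, another receptor of lymphocytes, differed by 1.16 between T-PNU and untreated tumors (adjusted p = 0.236), the most of the list, and Sphk1, a kinase that makes the ligand, by -0.46 (adjusted p = 0.15). In this comparison 0 of 6 were called, where 0.188% of all genes were. Cd69, whose product removes the S1pr1 receptor from the cell surface, differed by 0.04 from untreated and was called 0.67 higher than in T-DM1 tumors (adjusted p = 0.0031). It was called lower in T-DM1 than in untreated tumors (-0.63, adjusted p = 0.0149), where 6.27% of all genes were called. Sphk1 was called lower in T-PNU than in T-DM1 tumors (-1.03, adjusted p = 0.0016), a comparison in which 29.8% of all genes were called.

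Around Il7r, 9 of 9 genes of IL-7 and TSLP signaling had a row. Il2rg, which encodes the common gamma chain that pairs with the IL-7 receptor, was the only one called between T-PNU and T-DM1 tumors, 0.59 higher in T-PNU tumors (adjusted p = 0.0161), in the same direction as Il7r. Of all genes 29.8% were called between these groups. Il7, the ligand, differed by -0.53 (adjusted p = 0.0633) in that comparison and by -0.30 from untreated tumors (adjusted p = 0.372). Against untreated tumors 0 of 9 were called (0.188% of all genes), and Stat5a, which transmits the signal, differed the most (0.62).

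Around Lef1 and Tcf7, 9 of 9 other family members and partners had a row and 0 were called in T-PNU against untreated tumors, from -0.12 (Tle1, a corepressor) to 0.75 (Axin2, a target of the pathway). Against T-DM1, Tle4 (0.71) and Ctnnb1 (0.17), the gene of beta-catenin, were called higher in T-PNU tumors, and Tcf7l1 lower (-1.33, adjusted p = 0.0019), which was called higher in T-DM1 than in untreated tumors (1.22, adjusted p = 0.0098). Of all genes 29.8% were called between T-PNU and T-DM1 tumors, 6.27% between T-DM1 and untreated and 0.188% between T-PNU and untreated tumors. Of 7 other Ms4a genes, 0 were called against untreated tumors, from 0.07 (Ms4a4d) to 0.64 (Ms4a4c). Against T-DM1, Ms4a6b was called higher (0.42) and Ms4a4d lower (-0.50).

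In T-PNU against untreated tumors, 13 of 13 B cell genes had higher means with 0 called (median 1.04, Ms4a1 1.17), and so had 15 of 15 pan T cell genes (median 0.96, Cd3e 0.96). Of the effector and tissue T cell genes 17 of 17 had higher means with 0 called (median 0.61). Only 0.188% of all genes were called in this comparison. Against T-DM1, 6 of these 17 were called higher in T-PNU tumors, such as Cxcr6 (0.92, adjusted p = 0.0213), and 0 of the B cell and 0 of the pan T cell genes were. Of all 16996 genes 29.8% were called there in either direction, and 2111 genes as higher. Over the 20 samples, 15 of 15 pan T cell, 13 of 17 effector and 0 of 13 B cell genes were called higher than in untreated tumors, beside 31.1% of all genes called in either direction. Their median differences were 1.60, 1.05 and 1.43 in that order, and against T-DM1 over the 24 samples 0.90, 0.72 and 1.00. Within groups the mean of the B cell list had SDs of 1.33 to 1.72 and that of the effector list 0.212 to 0.555. The counts thus do not show that B cell genes differed less.

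Over 12192 named genes that were not among the lowest by mean level, the genes most like each of the 9 over the 24 samples were taken, 3 for each. Of these 27 places 6 were held by genes of the pan T cell list and 0 by genes of the B cell list. Among the 3 most like Satb1 were Slain1 and Ubash3a (r = 0.992 each). Among those most like Lef1 were Tdrp (0.993) and Faah (0.992), and Tcf7 was most like Cd4 (0.991), Ccdc64 and Cd5 (0.989 each). For S1pr1 they were St8sia6, St8sia1 (0.993 each) and Gramd3 (0.991), and for Ccr7 Ramp3, Aff3 and St8sia1 (0.987 each).

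For the other four genes the highest r were lower. Ms4a4b was most like Thy1 (0.975), a surface protein of T cells, Ctsw (0.961), a protease of cytotoxic cells, and Cd8b1 (0.959), a chain of CD8. Klf2 was most like Selplg, which encodes a ligand of selectins, and Pik3cd (0.960 each), then Ypel3 (0.956), and Il7r like Tmem243 (0.957), Znrf2 (0.949) and Zfp874a (0.946). Glycam1 was most like Bmf (0.951), Rasgrp3 (0.938) and Il9r (0.932). Spearman's rho of these 27 pairs was between 0.890 and 0.997, and r without the 2 samples farthest from the median was between 0.890 and 0.995. These genes were picked for the highest r of all, so that no test applies.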

How the data were processed

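RNA of CD45+ tumor cells was sequenced in 24 samples, 6 per group, 1 library per mouse. Per the labels and the methods of the study, reads were aligned with STAR 2.4.2a, checked with Picard, counted per gene with featureCounts (Subread 1.5.0) on mm10, and genes with few counts were removed. The authors modeled the read counts with DESeq2, which was not run here. The deposited values are log2 and normalized for library size by the authors. Their transformation is not named in the sources used here, and no 2 genes of a sample share a value, as in values shrunken gene by gene, which can reduce differences of low genes. Counts were not recovered, so no count model was run and the depth is unknown. 0 columns of other samples were left out.

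Groups come from the labels of the samples. Linear models with a mean per group were fitted to all 16996 genes and 24 samples with limma 3.58.1 in R 4.3.3 (empirical Bayes with a trend, 20 residual degrees of freedom), and the Benjamini-Hochberg adjustment was made over all genes. A gene was called at an adjusted p under 0.05, and a share of all genes called counts both directions. P-values measure the spread between mice. Correlations were tested with 100000 permutations of the samples, two-sided, and 1e-05 is the smallest p they can give. The steps were tested on simulated data. The 9 genes, the gene lists and the tests were chosen with earlier results of these data known. Named genes are the 9, the 3 most alike genes of each by Pearson's r, the genes with the largest and the smallest difference of a list and a few markers (Ms4a1, Cd3e, Cd69, Il7, Csn3 and Bcl2), and other called genes of a list were named after their values were seen. Some genes of this rule are not reported here. A summed level is the log2 of the sum of the linear values. Rows were found by symbol only, and 2417 of the 16996 rows had no symbol. A gene said to have no row may thus stand in a row without a symbol. Positions come from GENCODE M21 and promoters from RefSeq on GRCm38.p6. Alternatives were the 20 samples of the heatmaps, each sample left out, only the 2 groups compared, quantile normalization, subtraction of a T or B cell list, genes with a mean above the median, the digit of the sample code (1, 2 or 3) as a factor, sample weights, and an adjusted p under 0.01 with a log2 difference above 1.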

Additional observations from a re-analysis of the deposited data

Results flagged for a closer look

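Of 36 groups of 6 values (9 genes in 4 groups), 2 held a value whose gap to the nearest other value was large for the range of the group, and chance flags about 1 in 20 such groups. Both concern the same mouse, untreated B1. For Tcf7 it was at 12.12 with the next untreated value at 9.78, a gap of 0.656 of the range, and for S1pr1 at 13.15 with the next at 10.99, a gap of 0.705 of the range. A ratio of 0.582 for Ccr7, of 0.532 for Lef1 and of 0.506 for Satb1 in the same mouse stayed below the critical ratio for 6 values. In B1 the summed B cell list was 14.39, the highest of the untreated group.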

How the results depend on the processing

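Of the recounts of members called, 212 stayed within 1.5 times the count from all 24 samples, and 17 did not. Over the 20 samples of the heatmaps, the counts were 7 for any group difference, 9 for T-PNU against untreated, 9 against trastuzumab and 3 against T-DM1 (40.8%, 31.1%, 28% and 39.9% of all genes). With sample weights, which gave untreated B1 a weight of 0.216 and C1 0.289, they were 4, 9, 1 and 3, where 50.9%, 34.3%, 13.3% and 44.6% of all genes were called. For T-PNU against T-DM1 the count was 2 in a fit of only these groups (32.8% of all genes) and 0 after subtraction of the pan T cell list, after subtraction of the B cell list, with the digit of the sample code as a factor and at an adjusted p under 0.01 with a log2 difference above 1. After either subtraction and with the digit, 0 of all genes were called, and at the stricter limits 1.91%. Either subtraction puts the spread of the list within groups into genes that follow the list weakly or not at all. With 1 sample left out, the count for T-PNU against T-DM1 ran from 0 (without C2) to 2 (without G1, 33.9% of all genes), from 0 to 1 for any group difference (Il7r without untreated B1) and from 0 to 1 for T-PNU against untreated (Ms4a4b without untreated C1).

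Recomputed differences of single members were counted for every gene in the comparisons of T-PNU with another group. In the other comparisons only the genes with the lowest and the highest difference were counted, so that changes of sign among the rest are left out. Of the differences counted, 971 kept direction and side of the threshold, 35 became called, 2 lost their call with the sign kept and 43 changed sign, none of the 43 being called after it. The 43 include Il7r in T-PNU minus T-DM1, which lost its call after either subtraction of a list. Of the 43, 12 came from subtraction of the pan T cell list and 14 from that of the B cell list, which shift all genes of a comparison by 1 amount and say nothing of a single gene. After subtraction of the pan T cell list, T-PNU minus untreated was -0.13 for S1pr1, -0.43 for Klf2 and -0.48 for Il7r, T-PNU minus trastuzumab -0.40 for Klf2, -0.24 for Il7r and -0.10 for Ms4a4b, and T-PNU minus T-DM1 -0.27 for Ccr7, -0.033 for Tcf7, -0.11 for S1pr1, -0.53 for Klf2, -0.19 for Il7r and -0.071 for Ms4a4b. After subtraction of the B cell list, T-PNU minus untreated was -0.028 for Ccr7, -0.19 for S1pr1, -0.48 for Klf2, -0.53 for Il7r and -0.012 for Ms4a4b, T-PNU minus trastuzumab -0.53 for Klf2, -0.38 for Il7r and -0.24 for Ms4a4b, and T-PNU minus T-DM1 -0.36 for Ccr7, -0.12 for Tcf7, -0.19 for S1pr1, -0.61 for Klf2, -0.28 for Il7r and -0.16 for Ms4a4b. Over the 20 samples, Il7r was 0.10 in T-DM1 minus untreated, and Glycam1 was -0.63 in trastuzumab minus untreated and 0.88 in T-DM1 minus trastuzumab. All untreated samples have the digit 1, all T-DM1 samples 3 and T-PNU samples 1 or 2, so that a fit with the digit as a factor compares T-DM1 with T-PNU tumors only through the trastuzumab group, and with untreated tumors only through both others, which limits its calls by design. In it Lef1 was -2.61 in T-DM1 minus untreated and -0.39 in T-DM1 minus trastuzumab, and Glycam1 was -0.10 in trastuzumab minus untreated. With sample weights, Il7r was 0.015 in T-DM1 minus untreated and Glycam1 0.11 in T-DM1 minus trastuzumab. With 1 sample left out, S1pr1 ran from -0.34 to 0.38 and Glycam1 from -0.0155 to 0.82 in trastuzumab minus untreated, and Lef1 from -0.0035 to 0.84 and Glycam1 from -0.83 to 0.12 in T-DM1 minus trastuzumab. The cause of these changes was not tested. Among the differences counted, quantile normalization and the restriction to genes with a mean above the median changed no call and no sign, and Glycam1 is not among the genes above the median. No paired analysis was possible because the labels give the samples no shared replicate numbers. Depth is unknown and sets no stated limit.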
